A study of Mus musculus with 12 samples.

Results

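The 28 genes described here are those of cholesterol synthesis and of its control by the transcription factor SREBP2, chosen by name and followed in pathway order. Of these, 27 were found among the 13267 rows of the deposited liver table, which are keyed by transcript ID, and all 27 were tested. Fdft1, which makes squalene, was not matched and is not analysed here. The livers came from 12 C57BL/6 mice, made obese and steatotic (fat-laden in the liver) by a high-fat diet (HFD) before treatment. Controls (6 mice) then received a scaffold control pellet under the skin. In the 4-HPAA group (6 mice) the subcutaneous pellet carried 4-hydroxyphenylacetic acid, a phenolic acid formed by gut bacteria from dietary polyphenols. Treatment lasted 6 weeks in both groups, so every comparison is between obese mice, and no lean or untreated liver was part of it. The labels give no age and no batch. Samples carry numbers 1 to 6 within a group, with nothing further on their origin, so p-values measure only the spread between these samples.

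Cholesterol is built from acetyl-CoA through mevalonate, isoprenoid units, squalene and lanosterol, and the liver is a main site of this synthesis. Most of the enzymes are transcriptional targets of SREBP2, which is made as a membrane precursor in the endoplasmic reticulum. When sterols are low, SCAP escorts the precursor to the Golgi, where the site-1 and site-2 proteases release its active domain. When sterols are plentiful, INSIG proteins hold SCAP and the precursor back, so the activity of SREBP2 is set largely after transcription.

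The values are normalised read counts, that is, read counts scaled by the authors for each library. They summed to between 22869813 and 25255447 per liver. Reads before scaling were estimated at 24538125 to 26929205 in controls and at 22388924 to 25918875 with 4-HPAA. Control replicate 5 had the lowest sum and the most estimated reads. 4-HPAA replicate 3 stood apart from all other livers on the second principal component (20.6% of the variance), at −56.45 against −7.52 to 17.03. All 8 hepatocyte markers were in the table, and their sum ranged from 2259583 to 2745706 in controls and from 1918925 to 2503897 with 4-HPAA. Albumin alone took 7.59 to 8.72% of the values in controls and 4.98 to 7.58% with 4-HPAA, so the ranges of these shares nearly met. Albumin does not stand for the list. On the log2 scale, 3 of the 8 hepatocyte markers were lower and 5 higher with 4-HPAA, with a median difference of 0.10. Summed markers of stellate cells and fibroblasts (7 of 7 measured) ranged from 6244 to 9351 in controls and from 3763 to 7471 with 4-HPAA, and those of Kupffer cells and macrophages (8 of 8) from 1755 to 7814 and from 2545 to 4500. Of the adipocyte markers, Cidea and Cfd were measured, with sums of 219 to 1230 in controls and 23 to 502 with 4-HPAA, while Adipoq, Plin1 and Lep were not in the table. Sums ranged from 3141 to 3880 and from 2896 to 4162 for endothelial markers (6 of 6), from 1037 to 1715 and from 1064 to 1876 for cholangiocyte markers (5 of 5), and from 91 to 396 and from 92 to 208 for lymphocyte markers (4 of 6). The part of these other cell types in the results below was not tested. In whole liver, fewer cells of a type and less RNA per cell cannot be told apart.

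No member passed the test over all genes: the smallest Benjamini-Hochberg adjusted p among the 27 was 0.147 (limma), and the share of all 12720 tested genes that passed was 0%. Differences below are on the log2(value + 1) scale, 4-HPAA minus control, with the standard error (SE) of the fit. Negative differences were found for 20 of the 27 members, or 74.1%, against 50.2% of all genes tested, and positive ones for 7, against 49.8%. The median over the members was −0.18, and over all genes it was −0.0009. At an unadjusted p under 0.05, 6 members (22.2%) were lower with 4-HPAA and 0 were higher, where 7.56% of all genes were lower and 7.26% higher by the same rule. That count of 6 rested on single livers: it was 11 without control replicate 4 and 3 without control replicate 3. The 7.56% belongs to the fit of all livers, and no share of all genes is given for these fits. The groups of livers overlapped for all 27 members. Among all genes, 0.354% had every 4-HPAA liver below every control and 0.307% had every one above. The 18 measured synthesis enzymes had a median difference of −0.33 with 15 negative, and the 9 members of the SREBP2 machinery, sterol carriers and isoprenoid branch had a median of −0.03 with 5 negative.

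**Figure D1:**
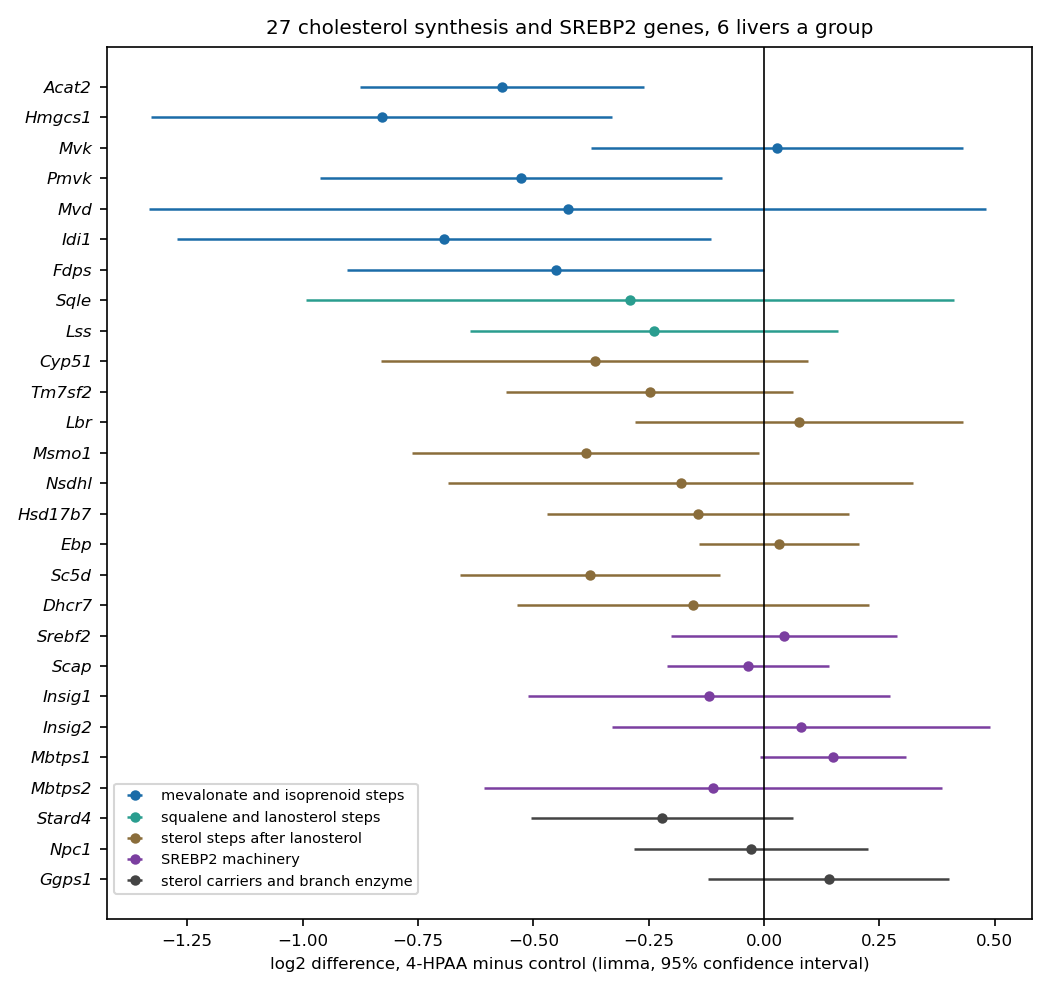
Log2 difference between 6 4-HPAA and 6 control livers (horizontal axis; points, limma estimate; bars, 95% confidence interval) for 27 genes in pathway order, coloured by step. Intervals of Acat2, Hmgcs1, Pmvk, Idi1, Msmo1 and Sc5d lie below 0, and those of the 6 genes of the SREBP2 machinery all reach across it.

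The first steps, from acetyl-CoA to farnesyl diphosphate, held the members with the largest negative differences. Of the 7 enzymes, 6 had negative differences, with a median of −0.53, and 4 of these were lower at an unadjusted p under 0.05, where 50.2% of all genes were negative and 7.56% lower by that rule. Acat2, the cytosolic thiolase that joins acetyl-CoA units, had the smallest p of all members. Its normalised count had a lowest, median and highest value of 1984, 2554.5 and 3317 in controls and of 1574, 1615 and 2345 with 4-HPAA. All of the 4-HPAA livers but replicate 4 lay below the lowest control. Mean counts were 2615 ± 580.2 and 1747 ± 299.8 (SD, n = 6 each). The log2 difference was −0.57 ± 0.14 (SE; limma, adjusted p = 0.147), which corresponds to 32.5% less with 4-HPAA. Without 4-HPAA replicate 4 Acat2 passed over all genes, at −0.66 (limma, adjusted p = 0.0346), and leaving out any 1 liver gave adjusted values between 0.0346 and 0.315. An exact two-sided permutation test over the 924 splits of the 12 livers gave p = 0.00866 for this gene, before any correction for the 27 members so tested. The nearby gene Acat3 matches Acat2 at 97.7% over 1477 bases, so the counting may have split reads of the pair. For Acat3 itself the control mean was 2297 ± 172 and the 4-HPAA mean 2335 ± 124 (SD, n = 6 each), with a log2 difference of 0.03 ± 0.07 (SE).

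Hmgcs1, which condenses acetoacetyl-CoA with acetyl-CoA to HMG-CoA, had the most negative difference of the 27 members. Its lowest, median and highest values were 5187, 8815.5 and 13250 in controls and 3783, 4448 and 7307 with 4-HPAA. In this gene 4 of the 4-HPAA livers lay below every control, and replicates 4 and 5 lay among the lower controls. Controls averaged 8972.5 ± 3206 and 4-HPAA livers 4899 ± 1303 (SD, n = 6 each). On the log2 scale the difference was −0.83 ± 0.23 (SE), which corresponds to 43.7% less with 4-HPAA. Hmgcs1 did not pass over all genes (limma, adjusted p = 0.183, and 0.0546 to 0.361 with 1 liver left out). The exact permutation test gave p = 0.0152, before any correction. Hmgcs1 shares 557 exon bases with Gm48342 on the opposite strand, and no source used here says if reads were counted by strand.

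Hmgcs1 lies on chromosome 13 (119690379 to 119708260, plus strand) and Acat2 on chromosome 17 (12942890 to 12960747, minus strand) of GRCm38. Their promoters are shown because these are the members of smallest p and the only ones of 23 with a promoter entry that held the core CACCCCAC of the sterol regulatory element, the motif bound by SREBP proteins. The sequences are the 250 bases before the start, from RefSeq (GRCm38.p6), read 5′ to 3′ on the gene's strand, chr13:119690101-119690350 (plus) and chr17:12960726-12960975 (minus). Capitals mark every match, on either strand, to CACCCCAC, to the CCAAT box CCAAT, to the GC box GGGCGG or to the E-box CACGTG.
Hmgcs1: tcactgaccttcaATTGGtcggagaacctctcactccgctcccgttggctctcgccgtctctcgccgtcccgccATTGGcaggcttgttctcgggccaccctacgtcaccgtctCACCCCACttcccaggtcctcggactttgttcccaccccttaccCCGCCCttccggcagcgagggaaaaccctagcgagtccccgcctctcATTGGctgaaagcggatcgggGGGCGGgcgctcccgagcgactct
Acat2: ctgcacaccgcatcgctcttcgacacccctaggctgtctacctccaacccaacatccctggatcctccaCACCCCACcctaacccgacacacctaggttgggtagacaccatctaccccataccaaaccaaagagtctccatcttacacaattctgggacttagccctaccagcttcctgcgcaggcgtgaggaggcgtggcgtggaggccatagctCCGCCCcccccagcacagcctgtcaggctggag
The core CACCCCAC began 136 bases before the start in Hmgcs1 and 181 before it in Acat2. Of all 32851 promoter windows of this length 2.58% held that core. Among the 29 windows of the members, 2 (6.9%) held it. The full sterol regulatory element, which contains this core, was also searched for. It was in 0 of the 29 member windows, those of Hmgcs1 and Acat2 included, against 0.0731% of all windows. CCAAT was in 19 of the 29 member windows (65.5%, against 33.8% of all), GGGCGG in 22 (75.9%, against 32.7%) and CACGTG in 5 (17.2%, against 6.02%). Only exact matches were counted, so a window with a near match counted as having none. A match of letters describes the sequence and is not evidence of binding.

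Mvk, Pmvk and Mvd, which phosphorylate mevalonate in successive steps and then decarboxylate it to isopentenyl diphosphate, had differing values. Pmvk, the second kinase, lay at 878, 1628 and 2152 (lowest, median and highest) in controls and at 866, 970 and 1381 with 4-HPAA. The 4-HPAA livers other than replicate 4, at 866 to 1021, lay near control replicates 1 and 4, at 1012 and 878, and below the other 4 controls. The difference was −0.53 ± 0.20 (SE; limma, adjusted p = 0.256). Mvk, the first kinase, had means of 594 ± 139 and 608 ± 146 (SD, n = 6 each) and a log2 difference of 0.03 ± 0.19 (SE) with a 95% confidence interval of −0.37 to 0.43. Mvd, the decarboxylase, had the largest SD of log2 values of any member in both groups (0.92 in controls and 0.71 with 4-HPAA). It ranged from 261 to 1050 in controls and from 191 to 611 with 4-HPAA, and its difference of −0.43 ± 0.42 (SE) had an interval of −1.33 to 0.48.

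Idi1 turns isopentenyl diphosphate into its reactive isomer. It had a lowest, median and highest value of 639, 1252 and 1563 in controls and of 347, 753 and 894 with 4-HPAA, a difference of −0.69 ± 0.27 (SE; limma, adjusted p = 0.259). The lowest value was that of 4-HPAA replicate 3, the liver that stood apart, and with 1 liver left out the difference ranged from −0.85 to −0.50. Fdps joins these units into farnesyl diphosphate. It lay at 5955, 9251.5 and 12636 in controls and at 3985, 7079 and 7807 with 4-HPAA. All 6 4-HPAA livers were below the control mean, 2 of them below every control, at a difference of −0.45 ± 0.21 (SE; limma, adjusted p = 0.338). Near copies of Fdps and Idi1 in the annotation match them at 95% or more over at least 200 bases, so part of their reads is of uncertain origin.

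**Figure D2:**
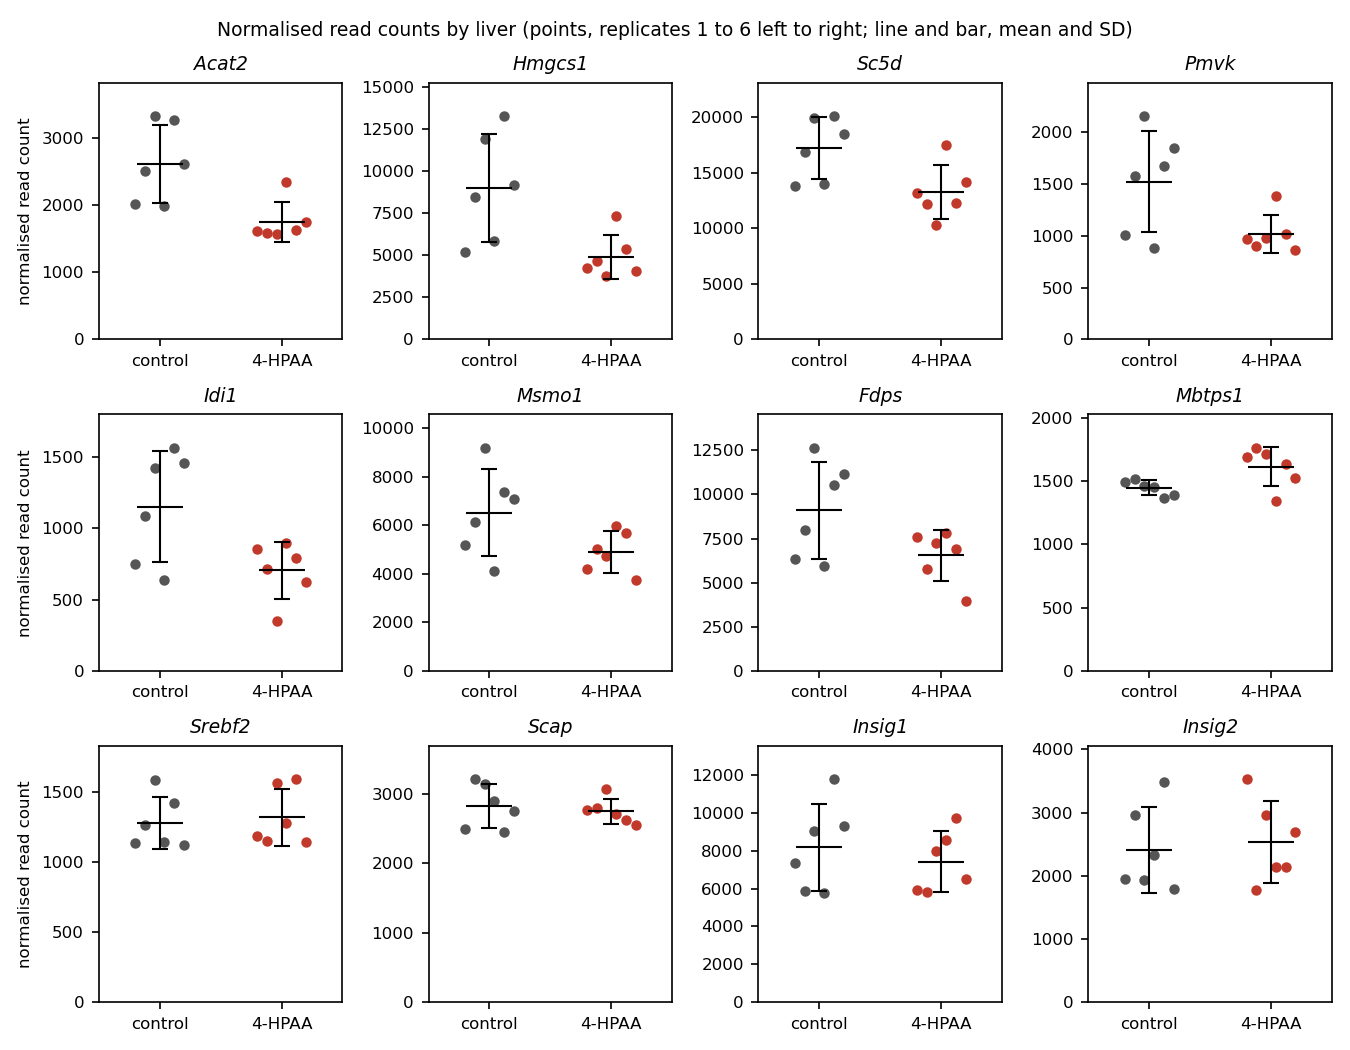
Normalised read count (vertical axis, from 0) in each of 6 control and 6 4-HPAA livers for the 8 members of smallest p and for Srebf2, Scap, Insig1 and Insig2, with mean and SD. In Acat2 5 of the 4-HPAA livers lie below the lowest control, while in Srebf2 the ranges of 1121 to 1579 and 1138 to 1586 nearly coincide.

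Squalene and lanosterol enzymes differed by less than their SD of log2 values among controls (0.79 for Sqle and 0.49 for Lss). The difference of Lss was larger than its SD with 4-HPAA (0.17). Sqle, the squalene epoxidase and a rate-controlling step, ranged from 667 to 2835 in controls and from 737 to 1750 with 4-HPAA. Its difference was −0.29 ± 0.33 (SE), with a 95% confidence interval of −0.99 to 0.41. Lss, which closes squalene epoxide into lanosterol, ranged from 951 to 2215 in controls and from 1153 to 1554 with 4-HPAA, a difference of −0.24 ± 0.19 (SE). For both enzymes the lowest control, replicate 4, lay below every 4-HPAA liver. Without that control the differences were −0.54 and −0.39 (limma, adjusted p = 0.482 and 0.385).

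Of the 9 measured enzymes that turn lanosterol into cholesterol, 7 had negative differences, with a median of −0.18, and 2 were lower at an unadjusted p under 0.05, beside the same 50.2% and 7.56% of all genes. Sc5d, the C5 desaturase late in the pathway, had the highest normalised counts of all members. Its lowest, median and highest values were 13822, 17697.5 and 20058 in controls and 10288, 12715 and 17519 with 4-HPAA. In Sc5d 4 of the 4-HPAA livers lay below every control, replicate 6 lay just above control replicates 1 and 4, and replicate 4 lay above control replicates 1, 2 and 4. Mean counts were 17185 ± 2796 and 13262 ± 2449 (SD, n = 6 each), with a log2 difference of −0.38 ± 0.13 (SE; limma, adjusted p = 0.217). Msmo1, the C4 methyl oxidase, lay at 4110, 6618.5 and 9183 in controls and at 3739, 4878.5 and 5967 with 4-HPAA, a difference of −0.39 ± 0.18 (SE; limma, adjusted p = 0.325). All 6 4-HPAA livers lay below the control mean of Msmo1, and 1 of them below every control.

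The other sterol enzymes did not reach an unadjusted p of 0.05. Cyp51, the lanosterol demethylase, was at −0.37 ± 0.21 (SE) and Tm7sf2, a C14 sterol reductase, at −0.25 ± 0.14 (SE), and in both all 6 4-HPAA livers lay below the control mean. Nsdhl and Hsd17b7, which complete the removal of the C4 methyl groups, were at −0.18 ± 0.23 (SE) and −0.14 ± 0.15 (SE). Dhcr7, the last reductase of the Kandutsch-Russell route, was at −0.15 ± 0.18 (SE). Ebp, the sterol isomerase, was the enzyme with the narrowest spread, at 5505 to 6989 in controls and 5861 to 7602 with 4-HPAA. Its difference of 0.03 ± 0.08 (SE) had an interval of −0.14 to 0.21. Lbr, a nuclear envelope protein that is also a C14 sterol reductase, had means of 171 ± 29.7 and 183 ± 38.4 (SD, n = 6 each) and a log2 difference of 0.08 ± 0.17 (SE). Tm7sf2 shares 532 exon bases with Vps51 on the same strand, so its count may hold reads of that gene.

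The genes that regulate the pathway gave a median difference of 0.0046 over 6 members, 3 negative and 3 positive, and none had an unadjusted p under 0.05 (limma). Srebf2, the gene of SREBP2, lay at 1121, 1199 and 1579 (lowest, median and highest) in controls and at 1138, 1232.5 and 1586 with 4-HPAA. The groups covered almost the same range, and the difference of 0.04 ± 0.11 (SE) had a 95% confidence interval of −0.20 to 0.29. Scap, the escort protein, lay at 2457, 2825.5 and 3208 in controls and at 2548, 2741.5 and 3069 with 4-HPAA, a difference of −0.03 ± 0.08 (SE; interval −0.21 to 0.14). These intervals concern messenger RNA, and neither SREBP2 protein nor its cleavage was measured.

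Insig1 and Insig2 encode the retention proteins, and Insig1 is itself a classical SREBP target. Insig1 lay at 5785, 8178.5 and 11744 in controls and at 5800, 7258 and 9708 with 4-HPAA. The difference was −0.12 ± 0.18 (SE), with an interval of −0.51 to 0.27, and 3 of 6 4-HPAA livers were on either side of the control mean. Insig2 lay at 1794, 2142.5 and 3483 in controls and at 1777, 2414.5 and 3524 with 4-HPAA, a difference of 0.08 ± 0.19 (SE; interval −0.33 to 0.49). The groups of Insig2 covered nearly the same range, while for Insig1 the 4-HPAA livers lay within the control range and did not reach its upper part.

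The promoters of Srebf2 (chr15:82147019-82147268, plus) and Insig1 (chr5:28071162-28071411, plus) are given, in the same format and with the same capitals, as the gene of the regulator itself and a feedback gene of the pathway.
Srebf2: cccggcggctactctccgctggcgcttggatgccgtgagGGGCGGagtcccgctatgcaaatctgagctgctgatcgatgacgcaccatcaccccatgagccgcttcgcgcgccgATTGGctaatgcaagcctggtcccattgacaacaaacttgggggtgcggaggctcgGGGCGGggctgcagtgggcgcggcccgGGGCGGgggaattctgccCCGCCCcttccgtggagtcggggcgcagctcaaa
Insig1: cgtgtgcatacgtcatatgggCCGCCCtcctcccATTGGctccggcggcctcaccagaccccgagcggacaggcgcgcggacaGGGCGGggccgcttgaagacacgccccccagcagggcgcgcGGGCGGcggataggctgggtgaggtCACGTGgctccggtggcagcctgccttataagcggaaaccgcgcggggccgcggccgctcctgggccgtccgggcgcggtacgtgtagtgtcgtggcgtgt
Insig1 held an E-box 101 bases before its start, and Srebf2 held a CCAAT box 135 bases before its start, in reverse. Neither window held an exact match to CACCCCAC. In Srebf2 a stretch upstream of the CCAAT box differed from that core in its last base only. Near matches were not searched for in any window, so whether other windows hold them was not tested.

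Mbtps1 and Mbtps2 encode the site-1 and site-2 proteases. Mbtps1 was the regulator with the smallest p, at 1366, 1458 and 1515 (lowest, median and highest) in controls and at 1342, 1663 and 1760 with 4-HPAA. In Mbtps1 5 of the 4-HPAA livers lay above the highest control and replicate 4 lay below the lowest. Its difference was 0.15 ± 0.07 (SE; limma, adjusted p = 0.363, and 0.123 to 0.573 with 1 liver left out). An exact two-sided permutation test gave p = 0.0411 for Mbtps1, before any correction. Mbtps2 was at −0.11 ± 0.23 (SE) and had a count of 77 in 4-HPAA replicate 3, against 182 to 253 in the other 4-HPAA livers and 173 to 220 in controls. Without that liver its difference was 0.14 (limma, adjusted p = 0.475). The gene shares 2867 exon bases with Yy2 on the same strand.

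Of the remaining members, Stard4, a cytosolic sterol carrier under SREBP2 control, was at −0.22 ± 0.13 (SE), with 3 of 6 4-HPAA livers below every control. Npc1, which exports cholesterol from lysosomes, was at −0.03 ± 0.12 (SE; interval −0.28 to 0.23). Ggps1, which diverts farnesyl diphosphate to geranylgeranyl diphosphate, was at 0.14 ± 0.12 (SE). The Ggps1 count of 4-HPAA replicate 3, 197, was the lowest of the 12, and without that liver the difference was 0.24 (limma, adjusted p = 0.177).

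The synthesis enzymes varied together among the control livers. The mean log2 deviation of the 18 enzymes from their control means was −0.61 in control replicate 4, −0.37 in replicate 1 and −0.08 in replicate 2, and 0.42, 0.34 and 0.29 in replicates 3, 5 and 6. Among the 4-HPAA livers it was −0.27, −0.39, −0.39, −0.07, −0.16 and −0.64 in replicates 1 to 6. So all 6 4-HPAA livers lay below the mean of controls and below control replicates 3, 5 and 6, while control replicates 1, 2 and 4 lay within their range. Control replicate 4 was the lowest control for 13 of the 18 enzymes, against 15.8% of all genes. Control replicates 3, 5 and 6 were the 3 highest controls for 17 of the 18 enzymes, an ordering noticed after the values were seen, which held for 4.62% of all genes. No label divides the controls in this way. The same mean over the 9 other members stayed between −0.12 and 0.10 in all 12 livers.

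**Figure D3:**
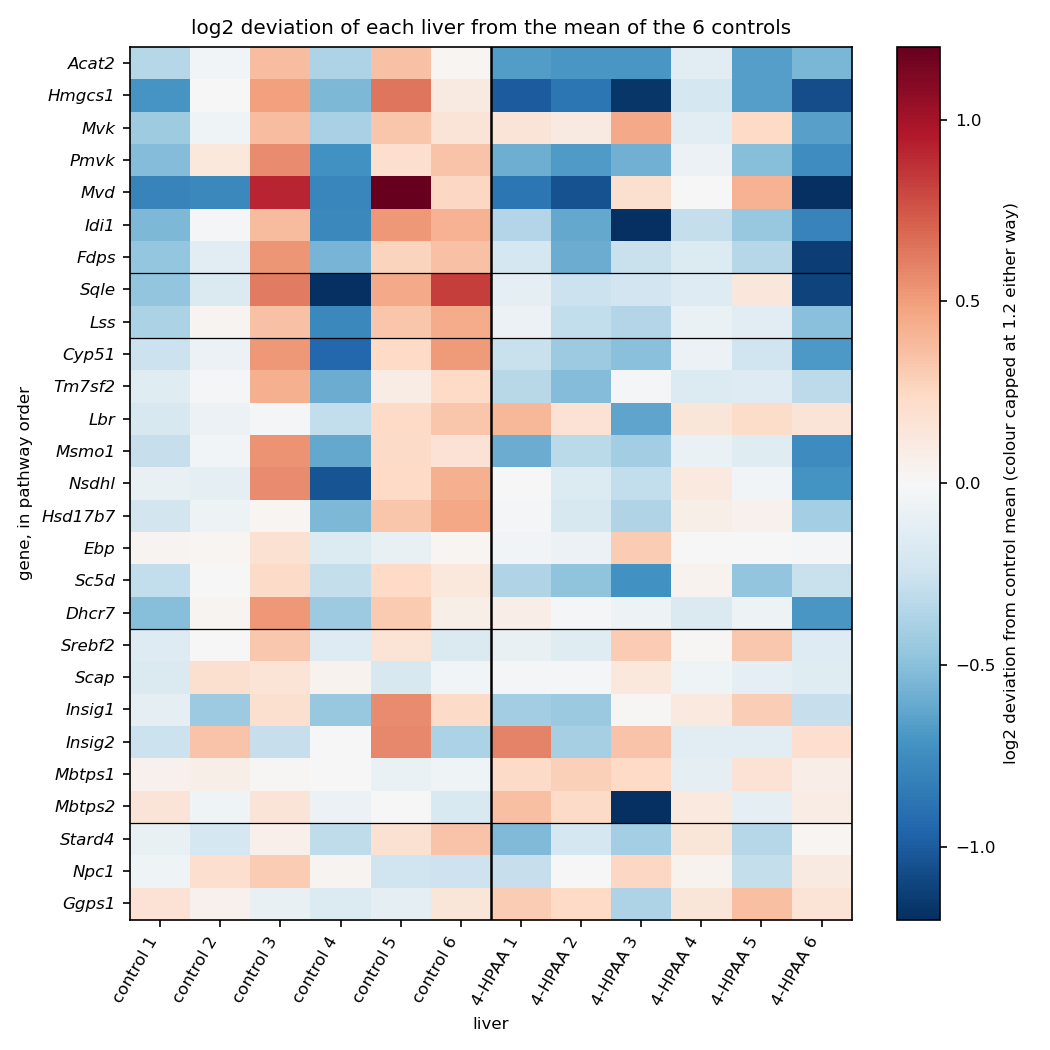
Log2 deviation of each liver (columns) from the mean of the 6 controls for 27 genes in pathway order (rows), red above and blue below, with thin lines between the steps. Control replicates 3, 5 and 6 are red over most enzymes, and control replicates 1 and 4 and most 4-HPAA livers are blue.

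The spread between controls was correspondingly wide. The SD of log2 values was larger among controls than among 4-HPAA livers for 14 of the 18 enzymes, against 31.1% of all genes tested, and for 4 of the 9 other members. Sqle had an SD of 0.79 in controls and 0.43 with 4-HPAA, Cyp51 of 0.56 and 0.22, and Lss of 0.49 and 0.17. Over the 27 members the median SD was 0.36 in controls and 0.26 with 4-HPAA, and over all genes it was 0.18 and 0.25. Among marker sums, those of cholangiocytes had the control ordering of the enzymes, with replicates 3, 5 and 6 highest (1715, 1644 and 1512) and replicate 4 lowest (1037). Other sums had other orders. The hepatocyte sum was highest in replicate 4 (2745706) and lowest in replicate 5 (2259583). Endothelial and lymphocyte sums were lowest in replicate 3 (3141 and 91) and highest in replicates 5 (3880) and 6 (396). The highest control was replicate 6 for Kupffer cells and macrophages (7814) and replicate 4 for stellate cells (9351). Replicate 4 was also highest for the sum of Cidea and Cfd (1230), the only adipocyte markers measured. The part of these cell types in the spread was not tested.

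**Figure D4:**
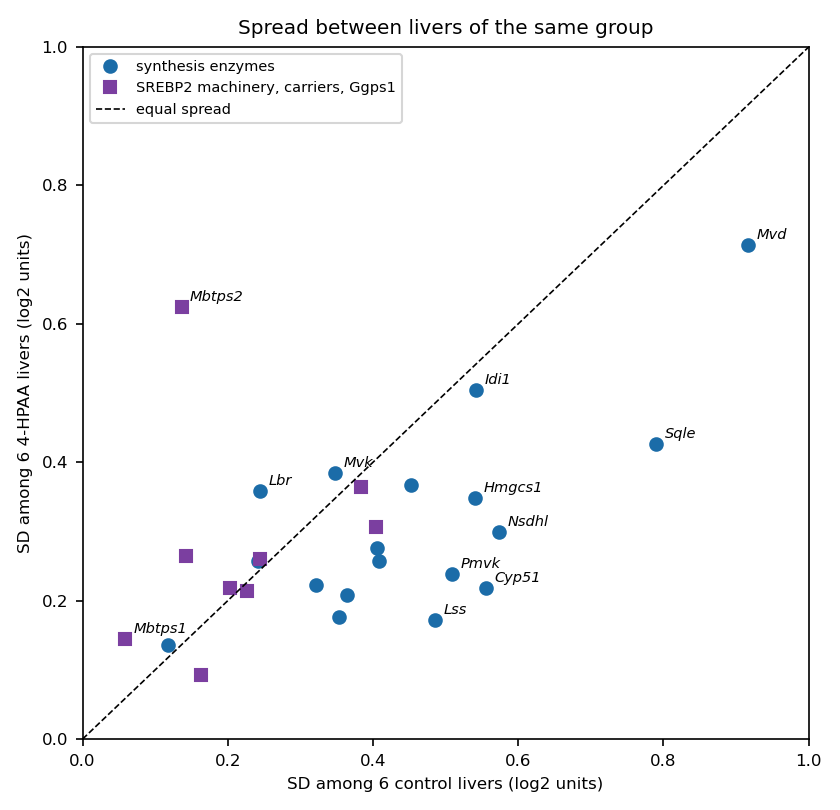
SD of log2 values among 6 4-HPAA livers (vertical axis) against that among 6 controls (horizontal axis) for 27 members, with a dashed line of equal spread. Of 18 enzymes, 14 lie below the line, and Mbtps2 lies far above it.

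Levels per kilobase of messenger RNA used the longest CCDS transcript of GENCODE M21, which need not be the transcript that keys the row. In controls their order ran from Fdps, at 6583 ± 1990 normalised counts per kilobase (SD, n = 6), to Mbtps2, at 41.2 ± 3.94. Sc5d (3590 ± 584), Ebp (3539 ± 292), Msmo1 (3188 ± 871), Insig1 (3029 ± 852) and Hmgcs1 (2590 ± 925) followed Fdps, and neighbours among these 5 differed by less than the larger of their SDs. Squalene and lanosterol enzymes were lower per length, at 647 ± 304 for Sqle and 364 ± 109 for Lss. Of the 2 C14 sterol reductases, Tm7sf2 stood at 2139 ± 492 and Lbr at 48.8 ± 8.47 per kilobase. Srebf2 stood at 251 ± 36.8 and Scap at 669 ± 75.0. With 4-HPAA, Hmgcs1 was at 1414 ± 376 and Tm7sf2 at 1770 ± 214 per kilobase, where the mean of Hmgcs1 was the lower; in controls it was the higher.

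Further sterol genes were taken from lists drawn up beside the members, with 75 measured. Of these, 8 were lower and 4 higher at an unadjusted p under 0.05, and none passed over all genes (limma, smallest adjusted p = 0.193). These are 10.7% and 5.33% of the 75, against 7.56% and 7.26% of all genes. Their median difference was −0.0032, with 38 negative and 37 positive. The first list held 8 measured genes: other enzymes, cofactors and relatives of pathway enzymes. Of these 2 were lower by this rule, and both are relatives. They were Ebpl, a relative of Ebp, at −0.41 ± 0.12 (SE) and the mitochondrial thiolase Acat1 at −0.20 ± 0.08 (SE). In the isoprenoid branch, which makes prenyl groups, ubiquinone and dolichol, 0 of 12 reached that p and the median was 0.03. Sterol uptake and transport had 2 lower and 2 higher of 13. The lower were the lysosomal sterol carrier Npc2 (−0.28 ± 0.10, SE) and the lysosomal acid lipase Lipa (−0.27 ± 0.09). The higher were the lipoprotein receptor Lrp1 (0.29 ± 0.12) and the sterol transfer protein Gramd1c (0.33 ± 0.12). With array weights Ebpl and Gramd1c did pass (limma, adjusted p = 0.0382 and 0.0404), as did Lrp1 without 4-HPAA replicate 4 (adjusted p = 0.0467).

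Esterification and efflux had 1 of 10 lower by the same rule, Nceh1, a cholesteryl ester hydrolase, at −0.33 ± 0.15 (SE). Among 8 genes that turn cholesterol into bile acids and oxysterols, the oxysterol hydroxylase Cyp7b1 was at 1.38 ± 0.41 (SE) and the cholesterol 24-hydroxylase Cyp46a1 at −1.04 ± 0.34 (SE). Of 24 regulators of LXR and SREBP, 2 were lower and 1 higher. Rnf145, a ubiquitin ligase, was at −0.41 ± 0.16 (SE), the sterol-binding membrane protein Pgrmc1 at −0.28 ± 0.12 (SE) and Sec24d, a coat protein of vesicles that leave the endoplasmic reticulum, at 0.32 ± 0.11 (SE).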

How the data were processed

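Liver RNA of 12 mice was sequenced (TruSeq directional mRNA libraries sequenced on an Illumina NovaSeq, per the labels' protocols). Per the submitters' processing notes, the build was GRCm38 and the tools included STAR, HTSeq, edgeR, DESeq2 1.28.1, cutadapt and FastQC 0.11.9; no source used here gives their roles, the annotation or the strand setting. The authors deposited 1 table of 13267 rows, each keyed by an Ensembl transcript ID. No gene name was repeated, and each row was read as the value of its gene. The deposited score values are read counts that the authors scaled per library and rounded, as judged from the gaps between low whole numbers. No count model was therefore used, although raw counts had been allowed for. GENCODE M21 named 13203 rows, and 64 had no name.

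The 12720 genes that reached 10 in 6 or more livers were tested with limma 3.58.1 (R 4.3.3; trend and robust settings) on log2(value + 1), with Benjamini-Hochberg adjustment over all of them. Single genes also had exact permutation tests. Near copies were transcripts alike at 95% or more over at least 200 bases. Alternatives covered scaling, pseudocount, filter, limma settings, a replicate block and leaving out each liver. All members were named; from the other lists, those at an unadjusted p under 0.05, at most 4 a list, were named, and Acat3 was added for its likeness to Acat2. Members and lists were chosen with earlier results of these data known. Some genes of the pathway are not reported here. Replicates of a group differed by more than sampling noise, at a chi-square per gene of 17.86 to 119.92 over 30 pairs.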

Additional observations from a re-analysis of the deposited data

Results flagged for a closer look

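In 8 of 54 tests (27 members in 2 groups of 6 livers), 1 liver lay farther from the others of its group than Dixon's 95% limit allows; chance gives about 1 in 20. All 8 were 4-HPAA livers. No share of all genes flagged by this rule is given here, so the count cannot be read as particular to these members. Replicate 3, which also stood apart over all genes, was low for Lbr (109, against 187 to 223 in the others), for Mbtps2 (77, against 182 to 253) and for Ggps1 (197, against 282 to 329), and high for Ebp (7602, against 5861 to 6190). Replicate 4 was high for Acat2 (2345, against 1574 to 1750) and for Pmvk (1381, against 866 to 1021). Replicate 6 was low for Sqle (737, against 1338 to 1750) and for Dhcr7 (1477, against 2126 to 2527).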

How the results depend on the processing

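Of 23 alternatives, 20 of 27 members kept the sign of their difference in all, and 1 of 621 member values passed at an adjusted p under 0.05 (limma), that of Acat2 without 4-HPAA replicate 4. Over all genes, where the main count was 0 (at an unadjusted p under 0.05, 962 lower and 924 higher), array weights gave 139, and with 1 liver left out the count ran from 0 to 193, with 193 without 4-HPAA replicate 4 and 5 without control replicate 1. With 1 liver left out, the members that passed numbered 0 to 1, those lower at an unadjusted p under 0.05 from 3 to 11 (3 without control replicate 3, 11 without control replicate 4), and those higher 0 to 1 (Ggps1 without 4-HPAA replicate 3, Mbtps1 without replicate 4). Array weights gave 1 higher member, Ggps1. Of the other sterol genes, 2 passed with array weights and 0 to 1 with 1 liver left out. Those lower at an unadjusted p under 0.05 numbered 13 with array weights and 5 to 12 with 1 liver left out (5 without control replicate 1, control replicate 2 or 4-HPAA replicate 1). Those higher numbered 3 to 7 (7 without 4-HPAA replicate 3 or 4). No share of all genes at an unadjusted p is given for these alternatives, so these counts of genes at an unadjusted p have no background here. The cause was not tested.

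With the replicate number as a block, 11 genes passed over all genes and 0 members did. Same-numbered livers correlated at −0.183 to 0.282 in their deviations, over 0.1 in 3 of 6 pairs, so the numbers were not taken to pair the mice; livers 1, 3 and 4 correlated best with their own number.

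Signs turned in 7 members, whose differences in the main fit lay between −0.11 (Mbtps2) and 0.08 (Insig2). With equal library totals Mvk was at −0.0013, and with quantile normalization Mvk was at −0.006 and Ebp at −0.0041. With array weights Ebp was at −0.0145, Insig2 at −0.0383 and Mbtps2 at 0.0784. With 1 liver left out the ranges were −0.0564 to 0.1655 for Mvk, −0.0218 to 0.0695 for Ebp, −0.0137 to 0.1071 for Srebf2, −0.0727 to 0.0042 for Scap, −0.0217 to 0.1958 for Insig2, −0.2045 to 0.1362 for Mbtps2 and −0.0828 to 0.0321 for Npc1. The deposited values were already scaled and rounded, so the counting error of each gene is known only approximately, and it bears most on Lbr, Mbtps2 and Ggps1, with the lowest counts.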
